A study of Mus musculus with 6 samples.

Results

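The genes of the common gamma chain cytokine receptors, 9 in all, were examined in RNA from group 2 innate lymphoid cells (ILC2s), namely Il2rg, Il2ra, Il2rb, Il15ra, Il7r, Il4ra, Il13ra1, Il21r and Il9r. They were taken by name from the 53278 genes of the deposited table, and all 9 had a row in it. These receptors let lymphocytes sense IL-2, IL-4, IL-7, IL-9, IL-15 and IL-21. Each receptor joins the shared gamma chain, encoded by Il2rg, to chains of its own, and the joined chains signal through the kinases JAK1 and JAK3 to STAT proteins. In ILC2s, IL-7 and IL-2 are known as survival and growth factors, IL-9 as an autocrine survival factor, and IL-4 as a costimulus. Il13ra1 encodes the chain that joins IL-4 receptor alpha in place of the gamma chain to form the receptor shared by IL-4 and IL-13.

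C57BL/6 mice aged 8 weeks were given 3 intraperitoneal injections of 1 µg rm-IL33, and ILC2s were sorted from their visceral adipose tissue. In both groups the cells were cultured for 48 h by the labels (the study's results text gives a shorter time) with rm-IL-2 and rm-IL-7 at 10 ng/mL each, so that ligands of these receptors were present throughout. One group, DTA-1, also received the GITR agonist antibody of that name at 5 µg/mL, and the other, isotype control, received an isotype control antibody. GITR is a costimulatory receptor of the TNF receptor family. Each group had 3 libraries, made from 10 ng of RNA each. The labels do not say whether these came from separate mice or cultures, so the p values measure the spread between these libraries, which may be technical. The study describes the sorting gate by CD45, ST2 and CD117 in its methods and by IL-7R in its figures, so Il7r may have served to select the cells.

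Library totals ranged from 30569351 to 35131329 counts. Values are normalized counts, that is CPM after TMM scaling, and the log2FC is the fitted log2 fold change of DTA-1 over isotype control. A gene was called when its edgeR adjusted p was under 0.05 and its change was at least 1.5-fold. All 15 genes of an ILC2 marker list passed the filter on low counts, from Il5 at 5063 to 9695 normalized counts, Gata3 at 1525 to 1716 and Il1rl1, which encodes ST2, at 1022 to 1286 down to Thy1 at 9.16 to 11.7 and Il17rb at 2.89 to 8.73. In DTA-1, 5 of these 15 genes were higher and 10 lower. Without DTA-1 replicate 1 edgeR called 3 of them, Il5 and Areg higher and Icos lower, against 0.744% of all genes tested. Of the defining genes of other lymphocytes Cd8a, Ms4a1, Pax5, Ncr1 and Klrb1c had 0 counts in all 6 libraries, and Cd3e was at 2.34 to 3.72 normalized counts. Others had more reads, with the T cell gene Cd3g at 36.2 to 48.6 and the B cell gene Cd79b at 16.4 to 17.8. The library labelled DTA-1 replicate 1 stood apart from its group, and these data do not tell whether its label is right. Its distance, a chi-square of the counts per degree of freedom, was 10.1 to 11.9 to the isotype control libraries. To the others of its group, DTA-1 replicates 2 and 3, it was 29.1 and 30.6. Those replicates were 12.0 from each other, and the isotype control libraries were 12.1 to 18.4 from each other. In 7771 of 14361 genes tested (54.1%) the value of DTA-1 replicate 1 fell within the range of the isotype control libraries. That share was not computed for DTA-1 replicates 2 and 3, so it does not by itself set this library apart. Because it stood apart, the test of each receptor gene is given with and without this library. It was singled out by its counts, for their likeness to isotype control. The p values and intervals without it do not allow for that choice and overstate the evidence throughout.

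Of the 9 receptor genes, 8 had counts and passed the filter on low counts, and Il13ra1 had none. With all 6 libraries none of the 8 was called (0 by edgeR, by DESeq2's Wald test and by limma-trend), where edgeR called 0% of all 14361 genes tested. At an unadjusted p under 0.05 there were 4 of 8, namely Il2rg, Il2ra, Il2rb and Il15ra, against 7.22% of all genes tested, and with a limit of 1.5-fold added there were 0 of 8, against 2.35%. These counts became, on omitting DTA-1 replicate 1, 6 of 8 (all but Il4ra and Il7r), against 14% of all genes tested, and 2 of 8 (Il2rg and Il21r), against 4.02%. The median log2FC was 0.14, against −0.0078 over all genes tested, with 4 genes at a higher and 4 at a lower level in DTA-1. With DTA-1 replicate 1 omitted, Il2rg was called (1 of 8 genes, against 0.744% of 14911 genes tested). At an adjusted p under 0.05 without a limit on fold there were then 3 of 8, Il2rg, Il2ra and Il2rb, all higher, against 1.7% of all genes tested (1.35% higher and 0.342% lower). Il2ra and Il2rb changed by less than 1.5-fold, and the median log2FC was 0.21, against −0.015 over all genes tested. All of this was measured in bulk RNA, in which fewer cells of a type and less RNA per cell cannot be told apart.

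**Figure D1:**
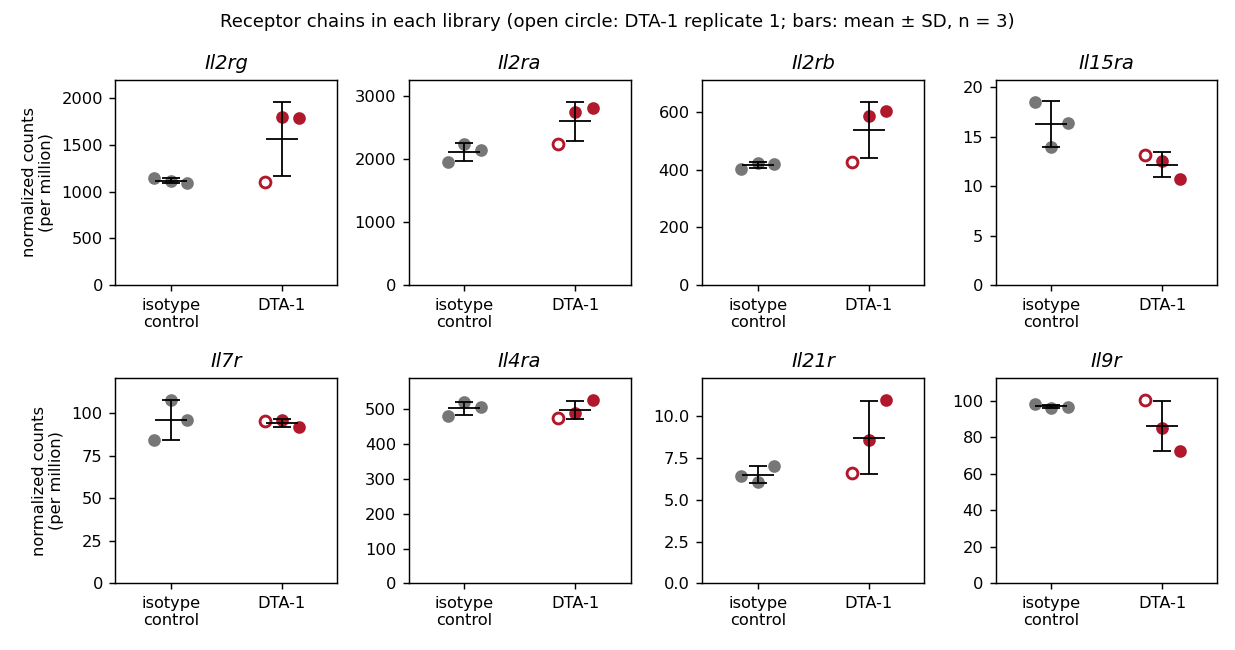
Normalized counts (CPM, axes from 0) of the 8 receptor genes with counts in each library, with gray points for isotype control, red points for DTA-1 replicates 2 and 3 and an open circle for DTA-1 replicate 1. Horizontal and vertical bars give the mean ± SD (n = 3 each). Il2rg, Il2ra, Il2rb and Il21r were above every isotype control library in DTA-1 replicates 2 and 3, and Il9r and Il15ra below.

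Il2rg, the gamma chain that all of these receptors but the IL-13 receptor share (chromosome X, 101264378 to 101268255 in GRCm38, minus strand), had 1142, 1117 and 1091 normalized counts in isotype control replicates 1, 2 and 3. It had 1107, 1802 and 1783 in DTA-1 replicates 1, 2 and 3. DTA-1 replicate 1 thus lay inside the range of the isotype control libraries, at 99.1% of their mean, whereas the other DTA-1 libraries were at 161% and 159.7% of it. The mean was 1116 ± 25.5 in isotype control, and that of DTA-1 was 1564 ± 396 (SD, n = 3 each). For Il2rg the log2FC was 0.49 (standard error 0.15, 95% interval 0.16 to 0.81, edgeR adjusted p = 0.627). Without DTA-1 replicate 1 the log2FC of Il2rg was 0.68 (standard error 0.05, 95% interval 0.58 to 0.79), which is a 1.61-fold rise with an edgeR adjusted p of 0.000115. Over all alternatives the adjusted p of Il2rg ranged from 2.07e-33, with DESeq2's Wald test and the same library left out, to 0.999, with DTA-1 replicate 3 left out. The annotation places Gm20489, with a mean of 10.1 counts, on the same stretch and strand as Il2rg. Il2rg was an abundant transcript in both groups, and 53 of the 14361 genes tested had a higher mean.

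Il2ra encodes the alpha chain of the IL-2 receptor (CD25), which has no signalling part of its own but raises the affinity for IL-2. The gene (chromosome 2, 11642807 to 11693193, plus strand) had 1952, 2240.2 and 2139.9 normalized counts in isotype control, against 2243, 2741 and 2809.8 in DTA-1. The gene model Gm37881, with a mean of 423 counts, lies within it on the same strand. Only 22 of the genes tested had a higher mean. The groups did not overlap, DTA-1 being higher, but DTA-1 replicate 1 cleared isotype control by a margin that vanished with total counts or DESeq2's size factors as the scaling. Over all 6 libraries the log2FC of Il2ra was 0.30 (standard error 0.09, edgeR adjusted p = 0.627). Omitting DTA-1 replicate 1 gave 0.39 (95% interval 0.26 to 0.53, edgeR adjusted p = 0.0122), so the whole interval lay below a 1.5-fold change.

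Promoter sequences are shown for Il2ra and Il2rg because these were the most abundant members and had higher values in the same libraries. They come from RefSeq (GRCm38.p6), which gave a window of 250 bases before to 50 bases after the start for 8 of the 9 genes. Il2rb had no window. Each window was searched on both strands for the kappaB consensus bound by NF-κB, for the STAT palindromes TTCNNNGAA and TTCNNNNGAA, and for the ETS-type motif CCGGAAG. Capitals mark matches, and the sequences read 5′ to 3′ along the gene over the 250 bases before its start.
Il2ra, chr2:11642542-11642791, plus strand: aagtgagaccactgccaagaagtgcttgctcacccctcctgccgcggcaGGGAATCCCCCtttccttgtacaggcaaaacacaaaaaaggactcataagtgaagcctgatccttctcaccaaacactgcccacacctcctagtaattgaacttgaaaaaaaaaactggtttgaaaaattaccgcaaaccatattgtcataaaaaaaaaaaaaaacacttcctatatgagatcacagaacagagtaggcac
Il2rg, chrX:101268256-101268505, minus strand: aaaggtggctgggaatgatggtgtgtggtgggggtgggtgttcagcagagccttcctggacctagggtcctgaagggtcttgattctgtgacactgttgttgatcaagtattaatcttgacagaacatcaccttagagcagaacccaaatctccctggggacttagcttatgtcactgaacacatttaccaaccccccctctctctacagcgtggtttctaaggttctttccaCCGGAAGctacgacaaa
The capitals in Il2ra are overlapping matches to the kappaB consensus that begin 201 bases before the start. The capitals in Il2rg are a match to the ETS-type motif that begins 17 bases before the start. Il15ra also held a match to the ETS-type motif, 104 to 98 bases before its start. Il2rg had no match to the kappaB consensus in its window. The kappaB consensus was found in 8.46% of all 32851 windows, the ETS-type motif in 8.86%, TTCNNNGAA in 8.3% and TTCNNNNGAA in 6.95%. These matches describe letters in the window and do not show binding.

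Il2rb encodes the beta chain that IL-2 and IL-15 receptors share and that carries the docking sites for STAT5. Il2rb (chromosome 15, 78480553 to 78495066, minus strand) had 403, 424 and 422 normalized counts in isotype control, against 428, 586 and 604 in DTA-1. The groups did not overlap, although DTA-1 replicate 1 was at 103% of the isotype control mean against 141% and 145% in the others. Il2rb had a log2FC of 0.37 (standard error 0.11, edgeR adjusted p = 0.627). Without DTA-1 replicate 1 it was 0.51 (95% interval 0.40 to 0.63, edgeR adjusted p = 0.00129), or 1.43-fold.

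Il15ra encodes the chain that binds IL-15 and presents it to the beta and gamma chains. It had far fewer reads, with 655, 488 and 577 counts in isotype control, against 406, 392 and 342 in DTA-1. As normalized counts these were 18.5, 13.9 and 16.4 in isotype control, against 13.1, 12.6 and 10.7 in DTA-1. No DTA-1 library reached the lowest isotype control library, and this held for DTA-1 replicate 1 as well. With all libraries the log2FC of Il15ra was −0.42 (standard error 0.16, 95% interval −0.77 to −0.08, edgeR adjusted p = 0.647), and −0.48 without DTA-1 replicate 1 (edgeR adjusted p = 0.239). The groups did not overlap in 3 of the 8 receptor genes (Il2ra, Il2rb and Il15ra), against 11.3% of all genes tested (5.26% higher and 6.03% lower in DTA-1), and in 2 of them, Il2rb and Il15ra, under the other scalings.

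Il2ra and Il15ra are neighbours on chromosome 2. Il2ra ends 12.1 kb before Il15ra begins at 11705290, both are on the plus strand, and the table lists no gene between them. The ratio of Il2ra to Il15ra normalized counts was 105, 161 and 131 in isotype control, against 171, 218 and 262 in DTA-1. The ratio was thus higher in each DTA-1 library than in any isotype control library, with the gap smallest for DTA-1 replicate 1. This follows from the separate values of Il2ra and Il15ra given above and says nothing further about their shared locus.

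Il7r encodes the IL-7 receptor alpha chain, which also pairs with the product of Crlf2 to form the receptor for TSLP. Il7r (chromosome 15, 9505788 to 9530176, minus strand) had 84.4, 108 and 96.4 normalized counts in isotype control, against 95.5, 95.9 and 91.8 in DTA-1. All DTA-1 libraries lay within the range of the isotype control libraries. The means were 96.2 ± 11.7 and 94.4 ± 2.30 (SD, n = 3 each). Il7r had a log2FC of −0.03 (standard error 0.09, 95% interval −0.23 to 0.17, edgeR adjusted p = 0.964) and −0.04 without DTA-1 replicate 1 (95% interval −0.26 to 0.19). Both intervals lie within a change of 1.5-fold in either direction. Its window held the only match to TTCNNNGAA among the receptor genes, 142 to 134 bases before the RefSeq start. These bases lie inside the gene as placed above, so the match is not upstream of that gene model. It is shown in capitals within 30 bases.
Il7r, chr15:9529999-9530028, minus strand: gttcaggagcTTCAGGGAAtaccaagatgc

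Il4ra encodes the IL-4 receptor alpha chain, which pairs with the gamma chain for IL-4 and with the product of Il13ra1 for IL-4 or IL-13. Il4ra (chromosome 7, 125552120 to 125579474, plus strand) had 481, 519 and 507 normalized counts in isotype control, against 475, 490.4 and 526 in DTA-1. The groups overlapped, with means of 502 ± 19.7 and 497 ± 26.2 (SD, n = 3 each). Il4ra had a log2FC of −0.01 (standard error 0.06, 95% interval −0.15 to 0.12, edgeR adjusted p = 0.972). Without DTA-1 replicate 1 it was 0.02 (95% interval −0.12 to 0.15). The direction of Il4ra changed between settings, and both intervals lie within 1.5-fold. Il4ra held the second kappaB match among the receptor genes, on the opposite strand, 20 to 29 bases after the RefSeq start.
Il4ra, chr7:125552281-125552310, plus strand: ccttctcgcaGGAAAGCCCCgcgcggcgcg

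Il13ra1 (chromosome X, 36112110 to 36171259, plus strand) had 0 counts in all 6 libraries. The limit that such a count of 0 sets is 3 counts per library, or 0.0854 to 0.0981 CPM before TMM scaling, for counting error only. Il13ra2, which encodes the decoy receptor for IL-13, also had 0 counts in all 6 libraries. Of the chains for IL-4 and IL-13, reads were thus found for Il4ra and Il2rg.

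Il21r encodes the IL-21 receptor chain, which pairs with the gamma chain. It had the fewest reads of the genes with counts, with 227, 212 and 248 counts in isotype control, against 204, 267 and 349 in DTA-1. As normalized counts Il21r was at 6.42, 6.04 and 7.03 in isotype control, against 6.60, 8.55 and 10.9 in DTA-1. DTA-1 replicate 1 lay within the isotype control range and the other DTA-1 libraries above it. For Il21r the log2FC was 0.42 (standard error 0.21, 95% interval −0.05 to 0.89, edgeR adjusted p = 0.725). Without DTA-1 replicate 1 it was 0.59 (95% interval 0.14 to 1.03, edgeR adjusted p = 0.216), and without DTA-1 replicate 3 it was 0.22. Il21r (125603429 to 125633570) begins 24.0 kb after the end of Il4ra on the same strand of chromosome 7, with no gene between them in the table. The ratio of Il4ra to Il21r normalized counts was 75.0, 85.9 and 72.1 in isotype control, against 72.0, 57.3 and 48.1 in DTA-1.

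Il9r encodes the IL-9 receptor chain. Il9r (chromosome 11, 32187541 to 32200279, minus strand) was the least variable of these genes in isotype control, with 97.9, 96.1 and 96.6 normalized counts. It had 100.3, 85.2 and 72.6 in DTA-1. DTA-1 replicate 1 lay above every isotype control library and the other DTA-1 libraries below, so the groups overlapped. With all 6 libraries the log2FC of Il9r was −0.17 (standard error 0.10, 95% interval −0.40 to 0.06, edgeR adjusted p = 0.75). It was −0.30 without DTA-1 replicate 1 (95% interval −0.49 to −0.10, edgeR adjusted p = 0.148) and −0.06 without DTA-1 replicate 3.

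With DTA-1 replicate 1 left out, the groups did not overlap in 6 of the 8 genes, 4 higher (Il2rg, Il2ra, Il2rb and Il21r) and 2 lower (Il9r and Il15ra), against 31.6% of all genes tested. In that library itself Il2rg, Il7r and Il21r, or 3 of the 8 genes, fell within the isotype control range, against the 54.1% of all genes given above.

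**Figure D2:**
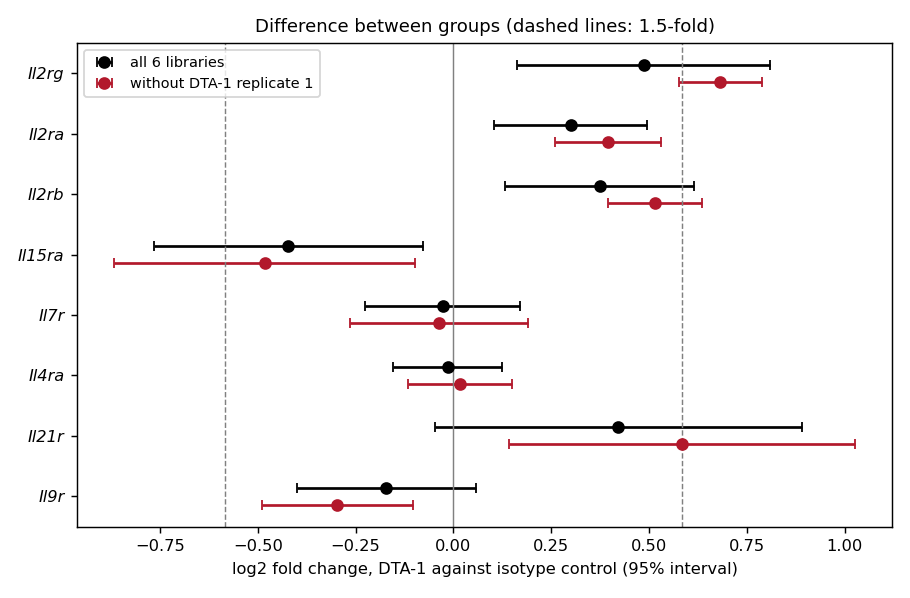
Log2 fold change of DTA-1 against isotype control with its 95% interval for the 8 receptor genes, in black with all 6 libraries and in red without DTA-1 replicate 1. Dashed lines mark 1.5-fold; the point for Il2rg passes the line without that library, at 0.68, while Il7r and Il4ra stay near 0.

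Levels of different genes were compared per kilobase of merged exons, as normalized counts per kilobase. In isotype control Il2rg had the highest level, 468 ± 10.7, followed by Il2ra with 369.6 ± 25.6 (SD, n = 3 each). The isotype control libraries of these genes did not overlap, but with the DTA-1 libraries included they did. Il2rb followed with 97.1 ± 2.61 and Il4ra with 83.7 ± 3.28, and the 6 libraries of this pair did not overlap. Il7r had 20.6 ± 2.51 and Il9r 19.6 ± 0.193, and this pair overlapped in isotype control and in DTA-1. Il15ra had 3.66 ± 0.517 and Il21r 1.95 ± 0.150, and their ranges met only between groups and within DTA-1. The order of the means was the same in DTA-1. With coding length in place of merged exons, Il2ra and Il2rg exchanged places, at 2625 ± 182 and 1009 ± 23.0 normalized counts per kilobase in isotype control, and the other 6 genes kept theirs. The gene level reads do not say which isoform was present.

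**Figure D3:**
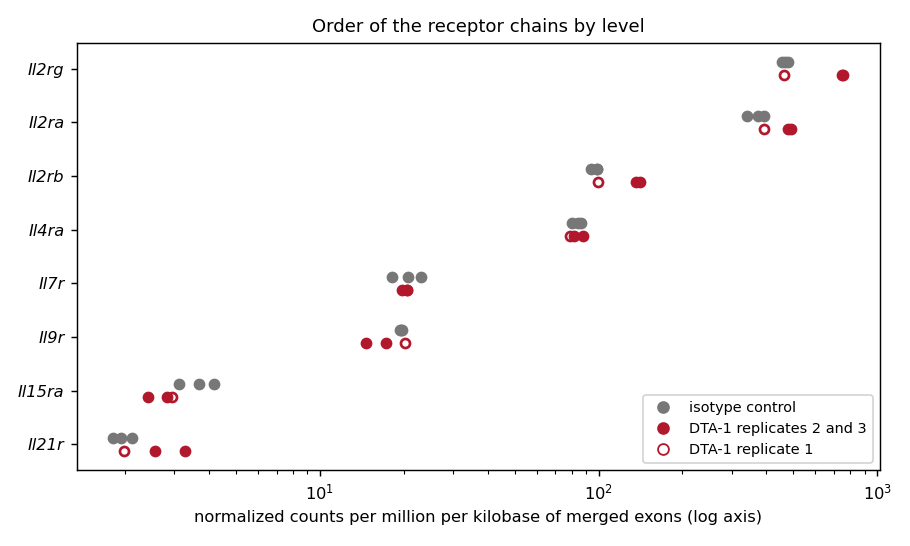
Level of each receptor gene in each library, as normalized counts per kilobase of merged exons on a log axis, ordered from highest to lowest in isotype control. Il2rg and Il2ra lead at 468 and 369.6 in isotype control, Il7r and Il9r overlap near 20.6 and 19.6, and Il21r is lowest at 1.95.

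The genes whose pattern over the 6 libraries was most like that of Il2rg were sought among 4440 genes with a mean of at least 50 normalized counts. By the Pearson r of log2 normalized counts over 6 libraries they were Cd82, a tetraspanin gene (0.998), the chaperone gene Hsp90ab1 (0.998), the pyruvate kinase gene Pkm (0.998), Tmem184b (0.998) and Areg, which encodes amphiregulin (0.997). Cd82 had 545 to 584 normalized counts in isotype control, 560.2 in DTA-1 replicate 1 and 1424 and 1322 in replicates 2 and 3. Areg had 193 to 194 in isotype control, 188 in DTA-1 replicate 1 and 334 and 317 in the others. All 5 share with Il2rg a level in DTA-1 replicate 1 near that of isotype control, so these values of r rest on DTA-1 replicates 2 and 3. Among the receptor genes themselves r with Il2rg was 0.985 for Il2rb, 0.918 for Il2ra, 0.897 for Il21r, 0.289 for Il4ra, −0.157 for Il7r, −0.718 for Il15ra and −0.896 for Il9r.

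The other genes of the pathway were described from lists made from general knowledge. Their counts at an unadjusted p under 0.05 stand beside shares of 7.22% of all genes tested with all 6 libraries and 14% without DTA-1 replicate 1. Of the ligand genes Il2, Il4, Il7, Il9, Il13, Il15, Il21 and Tslp, 4 of 8 were tested, 3 higher and 1 lower, and none was called with or without DTA-1 replicate 1 (0 genes by edgeR, 2 at an unadjusted p under 0.05 in each case). DESeq2's Wald test without that library called 1, Il9 (DESeq2 adjusted p = 0.0148). Il13, whose product acts through IL-4 receptor alpha, had 71.3, 64.0 and 75.3 normalized counts in isotype control, against 73.7, 108 and 88.8 in DTA-1. Its log2FC was 0.36 (edgeR adjusted p = 0.632), and 0.49 without DTA-1 replicate 1 (edgeR adjusted p = 0.056). Il9, which encodes the ligand of the IL-9 receptor, had 0.820, 1.40 and 1.11 normalized counts in isotype control, against 0.873, 6.12 and 2.01 in DTA-1. Its log2FC was 1.43 (edgeR adjusted p = 0.657), and 1.87 without DTA-1 replicate 1 (edgeR adjusted p = 0.103). In DTA-1 replicate 1 both Il13 and Il9 lay within the isotype control range. The DTA-1 library with the highest Il9 was replicate 2 and the one with the lowest Il9r was replicate 3. Il21 had 0 counts in all 6 libraries.

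Of the Janus kinase and STAT genes 9 of 9 were tested, 7 higher and 2 lower, with a median log2FC of 0.06. None was called with or without DTA-1 replicate 1 (0 genes by edgeR and 0 by DESeq2's Wald test, 3 at an unadjusted p under 0.05 in each case). Jak3, whose kinase binds the gamma chain, had 613, 620.3 and 664 normalized counts in isotype control, against 623, 641 and 693 in DTA-1. Its log2FC was 0.04 (standard error 0.06, edgeR adjusted p = 0.918). Jak1, whose kinase binds the partner chains, had a log2FC of 0.18 (standard error 0.08, edgeR adjusted p = 0.692), and 0.24 without DTA-1 replicate 1 (edgeR adjusted p = 0.128). Stat5b was at 0.06 (edgeR adjusted p = 0.919), Stat5a at 0.05 (edgeR adjusted p = 0.944) and Stat6, which acts for IL-4 and IL-13, at 0.09 (edgeR adjusted p = 0.769). Stat5a and Stat6 are uncertain because they overlap Stat3 and Nab2 on the other strand and the strand setting is not given. Tyk2 was higher in each DTA-1 library than in any isotype control library, with a log2FC of 0.18 (edgeR adjusted p = 0.657).

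Among related receptor chains outside the family, 5 of 7 were tested and all 5 had lower means, with a median log2FC of −0.13. Without DTA-1 replicate 1 there were 4 lower and 1 higher, Il3ra (log2FC −0.008 with all 6 libraries and 0.04 without that library). None was called with or without DTA-1 replicate 1 (0 genes by edgeR, 0 and 1 at an unadjusted p under 0.05). Crlf2, the partner of Il7r in the TSLP receptor, had 79.3, 70.5 and 82.1 normalized counts in isotype control, against 82.5, 69.2 and 72.5 in DTA-1, which overlapped. Its log2FC was −0.05 (edgeR adjusted p = 0.941). Csf2rb, the beta chain gene of the GM-CSF, IL-3 and IL-5 receptors, was at −0.13 (edgeR adjusted p = 0.766) and its near copy Csf2rb2 at −0.25 (edgeR adjusted p = 0.769), and reads of these genes may have been split between them.

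Of the adaptor and kinase genes next to the receptors 10 of 11 were tested, 6 higher and 4 lower. None was called with or without DTA-1 replicate 1 (0 genes by edgeR, 0 and 2 at an unadjusted p under 0.05). Ptk2b was at a log2FC of 0.13, Sos1 at −0.15 and Pik3r1 at −0.11, with edgeR adjusted p values of 0.722, 0.827 and 0.859. Of the negative regulators 12 of 12 were tested, 5 higher and 7 lower, and none was called with or without DTA-1 replicate 1 (0 genes by edgeR, 2 and 4 at an unadjusted p under 0.05). Rnf128, which encodes a ubiquitin ligase, had 1624, 1598 and 1564 normalized counts in isotype control, against 1613, 1134 and 1188 in DTA-1. DTA-1 replicate 1 lay within the isotype control range and the others below it. Its log2FC was −0.28 (edgeR adjusted p = 0.655), and −0.46 without DTA-1 replicate 1 (edgeR adjusted p = 0.00168), short of 1.5-fold. Ptpn2, a phosphatase gene, was at −0.22 (edgeR adjusted p = 0.657).

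STAT5 targets and survival genes were tested in 15 of 15, 9 higher and 6 lower, with a median log2FC of 0.02. With all 6 libraries none was called (0 genes by edgeR and 0 by DESeq2's Wald test, 3 at an unadjusted p under 0.05). With DTA-1 replicate 1 omitted, 9 of 15 had an unadjusted p under 0.05. Of them 2 (Lta and Pim2) had an adjusted p under 0.05, against 1.7% of all genes tested. Lta, which encodes lymphotoxin alpha, was called, against 0.744% of all genes tested. Lta had 53.7, 38.1 and 44.3 normalized counts in isotype control, against 41.0, 169 and 148 in DTA-1, so that DTA-1 replicate 1 lay within the isotype control range. Its log2FC was 1.39 (edgeR adjusted p = 0.692), and 1.80 without that library (edgeR adjusted p = 0.000115). Pim2, a survival kinase gene, had 44.4, 45.6 and 50.1 in isotype control, against 41.4, 32.8 and 33.9 in DTA-1, with every DTA-1 library lower. Its log2FC was −0.37 (edgeR adjusted p = 0.627), and −0.49 without DTA-1 replicate 1 (edgeR adjusted p = 0.0481). Myc was at 0.19 (edgeR adjusted p = 0.632) with every DTA-1 library higher. The feedback gene Cish had 571, 542 and 629 normalized counts in isotype control, against 568, 676 and 634 in DTA-1, and was chosen here, with Socs2, after its values were seen. Cish had a log2FC of 0.11 and Socs2 of 0.02 (edgeR adjusted p = 0.797 and 0.969).

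**Figure D4:**
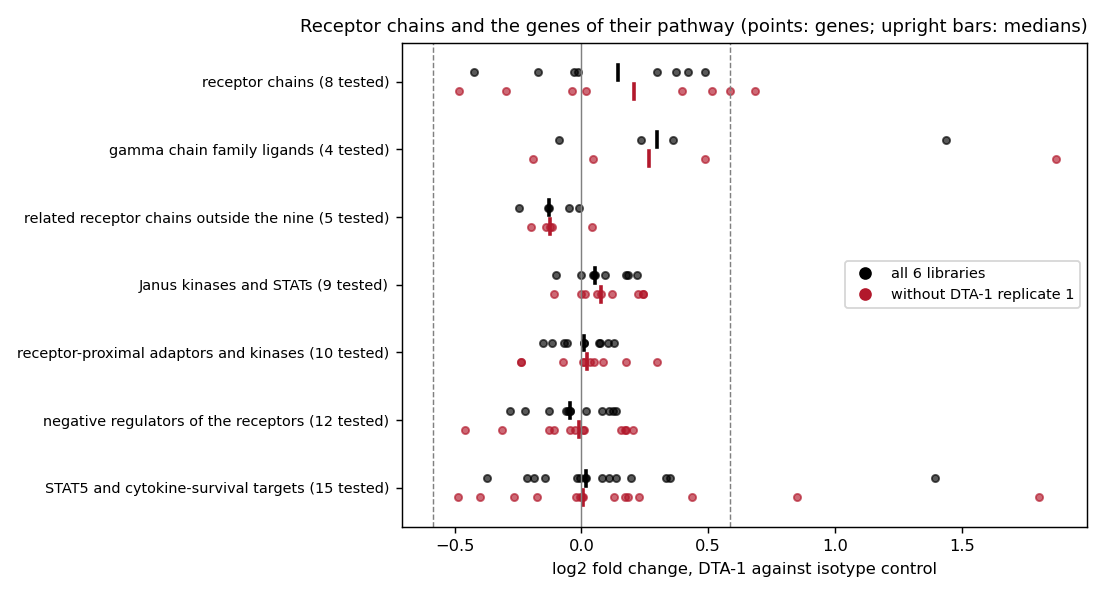
Log2 fold change of DTA-1 against isotype control for the receptor genes and the genes of each pathway list that passed the filter on low counts. Points are genes, upright bars medians, black all 6 libraries and red without DTA-1 replicate 1; dashed lines mark 1.5-fold, and the points far to the right are Il9 (1.43 and 1.87) and Lta (1.39 and 1.80).

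By the study's methods the sort kept cells with CD45, ST2 and CD117. It left out cells stained for T cell markers (CD3ε, TCRγδ), the B cell marker CD45R or myeloid markers (CD11b, CD11c, Gr-1). Cells stained for Ter119 of red cells or FcεRI of mast cells and basophils were also left out. How fully the gate removed other cell types was not tested. For T cells 6 of 9 genes were tested, all 6 lower in DTA-1, and their summed level was 44.3 to 59.0 normalized counts in isotype control and 49.5 to 54.5 in DTA-1, most of it Cd3g. For mast cells and basophils 5 of 7 genes were tested, 4 higher and 1 lower. Cma1 and Cpa3 were called without DTA-1 replicate 1 (edgeR adjusted p = 0.0096 and 0.0391), against 0.744% of all genes tested. The summed level of the mast cell and basophil genes was 16.5 to 21.7 in isotype control and 16.1 in DTA-1 replicate 1. It was 44.9 and 33.1 in replicates 2 and 3, the libraries in which Il2rg was high. Of the fibroblast genes 7 of 10 were tested, all 7 lower, Col1a1 being called without DTA-1 replicate 1 (edgeR adjusted p = 0.0325), with a summed level of 6.50 to 17.6 in isotype control and 1.00 to 7.15 in DTA-1. The summed levels were 16.6 to 18.2 for B cells, of which most was Cd79b, 6.47 to 12.2 for macrophages and monocytes, 2.95 to 7.74 for eosinophils, 10.6 to 24.4 for endothelial cells, of which most was Pecam1 (lower and called without DTA-1 replicate 1, edgeR adjusted p = 0.0132), and below 0.5 for NK cells and adipocytes over the 6 libraries. The part of these cells in the receptor levels was not tested.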

How the data were processed

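RNA-seq of 6 libraries, 3 each of DTA-1 and isotype control (headed PBS in the table), was analysed. The authors aligned reads and quantified genes with Partek software. The submitters' processing notes name bcl2fastq 2.17.1.14, STAR 2.5.3a and mm10. Annotation release, strand setting and treatment of shared reads are not given in the sources used here. Per gene and library, the deposited table gives an expected count (an estimate that need not be whole), not normalized. It held 53278 genes, and no sample column was left out. Gene starts and ends were those of GENCODE M21 (GRCm38) for 47717 of 49721 shared symbols, after 1 was taken from each end.

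Counts were rounded. edgeR 4.0.16 (R 4.3.3) was run with filterByExpr, TMM, robust dispersions and the quasi-likelihood test, without covariates, on 14361 genes. Coordinates are those of the table. The design, lists, alternatives and rule for named genes (all receptor genes, and in each list the called genes and the 2 with the smallest p with and without DTA-1 replicate 1, besides Jak1, Jak3, Stat5a, Stat5b and Stat6) were written with earlier results of these data known, as were the receptor genes chosen. Of the genes this rule names, 1 is not reported here. p values were adjusted by Benjamini-Hochberg over all genes tested. Intervals have a confidence level of 95%. Alternatives used DESeq2 1.42.0, limma 3.58.1 with a prior count of 2, other scalings and filters, and omitted libraries. An exact permutation test of 3 against 3 cannot go below p = 0.1 and was not run. The edgeR step was tested on simulated data. Plots were made with matplotlib 3.10.9.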

Additional observations from a re-analysis of the deposited data

How the results depend on the processing

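Over the 6 comparisons that each left out 1 library, the number of genes called was 0 to 111. It was 0 to 1 for receptor genes (Il2rg) and 0 to 1 for STAT5 targets and survival genes (Lta). Every call was made without DTA-1 replicate 1. The log2FC ranged from 0.38 to 0.68 for Il2rg, −0.057 to 0.016 for Il4ra and −0.11 to 0.062 for Il7r, and from 0.22 to 0.59 for Il21r. Il4ra was above 0 without isotype control replicate 2 or DTA-1 replicate 1 or 2, and Il7r without isotype control replicate 2. Without DTA-1 replicate 1 the count over all genes was 182 with DESeq2's Wald test, 120.0 with limma-trend and 104 with total counts as the scaling. Each called 1 receptor gene, Il2rg (log2FC 0.69, 0.68 and 0.63), and 1 of the STAT5 targets and survival genes, Lta. Il4ra was then at 0.023 with DESeq2's Wald test and 0.016 with limma-trend, but −0.038 with total counts. DESeq2's Wald test also called 1 ligand gene there, Il9. With all 6 libraries DESeq2's Wald test called 25 genes, no filter on low counts 2, and the replicate block 1, and none of them was a receptor gene. The replicate block gave a log2FC of 0.45 for Il2rg and changed no call among the receptor genes and lists. Whether the numbers pair the libraries could not be told from the counts. Deviations from the group means correlated at −0.0069, −0.0028 and 0.015 for replicates 1, 2 and 3. For libraries of unlike number they correlated at −0.014 to 0.016. DTA-1 replicate 1 stands apart and weighs on the deviations of its group, so this check cannot decide. At an unadjusted p under 0.05 with 1.5-fold there were 337 genes and 1 ligand gene, Il9. With coding length 6 of the 8 receptor genes kept their rank. The causes were not tested. Il15ra and Il21r rest on the fewest reads, and their intervals are the widest of the receptor genes. The comparison of scalings for overlap of the groups was added after the data were seen.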

Other observations

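Within each library the ratio of Il2rg to a partner chain does not depend on scaling. The ratio of Il2rg to Il2rb normalized counts was 2.83, 2.64 and 2.59 in isotype control, against 2.58, 3.07 and 2.95 in DTA-1, and the groups overlapped. The ratio of Il2rg to Il4ra was 2.37, 2.15 and 2.15 in isotype control, against 2.33, 3.67 and 3.39 in DTA-1. For Il7r it was 13.5, 10.4 and 11.3 against 11.6, 18.8 and 19.4, and for Il9r 11.7, 11.6 and 11.3 against 11.04, 21.1 and 24.6. In DTA-1 replicates 2 and 3 the transcript of the shared chain was thus more abundant relative to that of the IL-4, IL-7 and IL-9 receptor chains than in any isotype control library, and in DTA-1 replicate 1 it was not. These ratios were computed after the values were seen and were not tested. The ratio to Il21r, another partner chain, was not computed, and Il21r was itself above every isotype control library in DTA-1 replicates 2 and 3.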
